A study of Mus musculus with 52 samples.

Results

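The mouse embryonic stem (ES) cell line ZFCUMNT was compared directly with the mouse ES cell line B6NT on 4 two-colour cDNA arrays, of 52 arrays in the series. The arrays are those whose title names this pair, and no measured value entered their choice. Total RNA (20 microgram) was reverse transcribed and coupled to a dye afterwards. Arrays 1 and 2 carried ZFCUMNT in Cy5 and B6NT in Cy3, and arrays 3 and 4 carried ZFCUMNT in Cy3 and B6NT in Cy5. The study compared 7 ES lines that differ in the cell type that gave the nucleus, in 13 pairs of 4 arrays each. Per the series description, a pair of lines had nuclei from cumulus cells, which surround the oocyte, and differed in cloning method. The pair is not named, and ZF, CUM, B6 and NT are not spelled out. No passage, sex, culture condition or feeder layer is given for ZFCUMNT or B6NT in the labels. Each is a single line, and the labels do not say whether its arrays came from separate cultures. P-values therefore measure only the spread between arrays, which may be technical.

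ES cells derive from the epiblast of the blastocyst, or, after nuclear transfer, from a blastocyst grown from an oocyte that received a somatic or ES cell nucleus. The undifferentiated state rests on transcription factors such as Pou5f1, Sox2 and Klf4. Nodal, a secreted ligand of the TGF-beta family, signals in these cells through Smad proteins and switches on its own extracellular inhibitors, Lefty1 and Lefty2. A nuclear transfer line carries the donor's chromosomes, and mouse ES cells with a pair of X chromosomes keep both active until they differentiate.

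The deposited values are ratios of the 2 dyes, read as log2, and every value below is ZFCUMNT minus B6NT on that scale. A positive value means a higher signal in ZFCUMNT if the deposited ratio is Cy5 over Cy3. The numerator is not stated, and if it is Cy3 every sign turns at once. A ratio shows a difference and no level, so the presence of ES cell markers in either line could not be read. Of 12 ES cell markers listed, 9 were tested, and limma called 0 of them at an adjusted p of 0.05. At an unadjusted p of 0.05, 2 passed (Klf4 and Utf1). Over all features the shares were 0.124% and 5.21%. Between 19072 and 19555 of 20794 probes were measured on each of the 4 arrays. The median deposited ratio was 0.469, -0.028, 0.085 and 0.089 on arrays 1 to 4. Gene values on single arrays are given without centring, so those on array 1 lie higher as a whole. Probes of a gene were averaged, which left 16108 features tested, 8589 of them genes with a symbol.

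The 4 arrays resembled each other little over all features. The rank correlation across features was 0.05 between arrays 1 and 2 and 0.189 between arrays 3 and 4, which share a dye orientation. It lay between -0.033 and 0.005 for the 4 pairs of opposite orientation. Of 14135 features measured on all 4 arrays, 14.8% kept a single sign after turning and centring, against 12.5% for random signs and 15.7% with the ratios left as they stand. The same difference was also taken through linking lines, each compared with both ZFCUMNT and B6NT, as the mean of the paths through HM-1, #4 (B6) and HM-1 NT, from 24 arrays that do not hold both lines. Over all 12375 to 12500 features measured on both, the rank correlation with those arrays was 0.046, 0.041, 0.042 and 0.034 for arrays 1 to 4. Over the 300 features with the strongest difference on those arrays, it was 0.292, 0.098, 0.232 and 0.22. All 4 had the sign of their dye label, with array 2 the lowest over the 300.

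Few genes passed the test between ZFCUMNT and B6NT. Limma called 20 of 16108 features, or 0.124%, at a Benjamini-Hochberg adjusted p of 0.05, 15 of them positive (0.0931%) and 5 negative (0.031%). With array medians subtracted the split was 9 positive and 10 negative. Of the 20 features, 11 were genes with a symbol, 9 positive and 2 negative. The other 9 were probes for which no gene is listed. At an unadjusted p of 0.05, 840 features passed, or 5.21%. A single array moved the number of calls: 34 features were called without array 1, 10 without array 3 and 13 without array 4.

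Lefty2, the Nodal inhibitor (Entrez gene 320202, chromosome 1, 1 probe), had the smallest p of all features. Its values were -2.54, -2.45, -2.69 and -2.93 on arrays 1 to 4. All 4 lay within a narrow range far below 0, and before turning they were -2.54 and -2.45 with ZFCUMNT in Cy5 and 2.69 and 2.93 with ZFCUMNT in Cy3. The deposited sign of Lefty2 thus followed the dye labels. The fitted difference was -2.65 ± 0.25 (SE, n = 4 arrays, limma adjusted p = 1.8e-09), which is 6.29-fold in size. Lefty2 remained past the threshold without each array in turn. With the 4 arrays fitted alone, no feature was called, Lefty2 included (adjusted p = 0.88 with a dye term and 0.35 without).

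On the 24 arrays through linking lines Lefty2 stood at -2.38 ± 0.20 (SE, limma adjusted p = 7.5e-11). The path through HM-1 gave -2.64, the path through #4 (B6) gave -2.44 and the path through HM-1 NT gave -2.05. The direct value minus the value through linking lines was -0.27 ± 0.32 (SE), which did not pass the test. In comparisons that hold only 1 of the 2 lines, ZFCUMNT minus HM-1 was -2.51 ± 0.25, and ZFCUMNT minus #4 (B6) was -0.19 ± 0.25. ZFCUMNT minus HM-1 NT was -0.42 ± 0.25 and ZFCUMNT minus PDCUMNT was -0.24 ± 0.25. B6NT minus HM-1 was 0.13 ± 0.25, and B6NT minus #4 (B6) was 2.25 ± 0.25. HM-1 NT minus B6NT was -1.64 ± 0.25 (SE, n = 4 arrays for each of these values). In these ratios B6NT lay near HM-1, and ZFCUMNT near #4 (B6), HM-1 NT and PDCUMNT. Measured against HM-1, the latter lines lay further apart. #4 (B6) minus HM-1 was -1.29 ± 0.25, HM-1 NT minus HM-1 was -1.08 ± 0.25 and PDCUMNT minus HM-1 was -1.91 ± 0.25 (SE). ZFCUMNT minus HM-1 was lower, at -2.51, so the distance of ZFCUMNT from #4 (B6) and HM-1 NT depended on the arrays used.

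Lefty1, the neighbouring paralog on chromosome 1, had values of -1.74, 0.85, -0.14 and -1.73 on arrays 1 to 4. The signs were mixed, and the fit gave -0.69 ± 0.44 (SE, limma adjusted p = 1). The paralogs are similar in sequence, and whether their probes tell them apart is not known. Lefty2 was the only call among 26 tested genes of Nodal and BMP signalling, against 0.124% of all features called. Of the 26 genes, 16 had positive and 10 negative values. The list median was 0.12, against 0.06 for all features. The ligand gene Bmp4 stood at 0.06 ± 0.72, the receptor gene Bmpr1a at 1.36 ± 0.89, and the signal transducers Smad2, Smad3 and Smad4 at 0.13 ± 0.63, -0.35 ± 0.41 and -0.58 ± 0.33 (SE). None of these 5 genes passed the test.

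**Figure D1:**
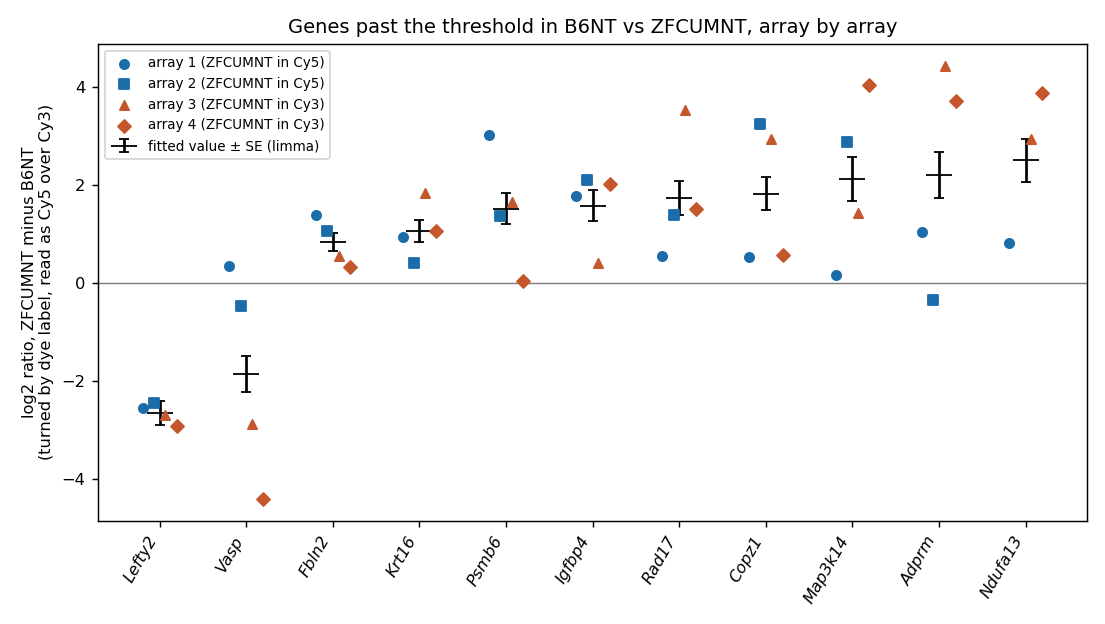
Log2 ratio of ZFCUMNT minus B6NT on each of the 4 arrays for the 11 called genes with a symbol, with the fitted value and its standard error. The 4 Lefty2 values lie between -2.93 and -2.45, while the 4 values of Vasp run from -4.41 to 0.36.

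Of the 9 positive genes, a pair belongs to the list of fibroblast genes. Igfbp4, a secreted binding protein of insulin-like growth factors (Entrez gene 16010, chromosome 11), had values of 1.78, 2.11, 0.42 and 2.03 on arrays 1 to 4. All 4 were positive, with array 3 the lowest, and the fit gave 1.58 ± 0.32 (SE, limma adjusted p = 0.02). It missed the threshold without array 2 (1.5, adjusted p = 0.094) and without array 4 (1.34, adjusted p = 0.22). Fbln2, a glycoprotein of the extracellular matrix (chromosome 6), had values of 1.39, 1.07, 0.55 and 0.34. These were all positive and larger on arrays 1 and 2, with a fit of 0.84 ± 0.18 (SE, limma adjusted p = 0.039). It missed the threshold when any single array was left out, at values between 0.78 and 0.89.

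Krt16, a keratin known from stressed epidermis (chromosome 11), had values of 0.94, 0.41, 1.84 and 1.07 on arrays 1 to 4. All 4 were positive, and the fit gave 1.07 ± 0.23 (SE, limma adjusted p = 0.041). Krt16 was not called without array 3 (0.75) or without array 4 (1.01). Copz1, a subunit of the COPI vesicle coat (chromosome 15), had values of 0.53, 3.25, 2.95 and 0.58. Its values on arrays 2 and 3 were far above those on arrays 1 and 4, and the fit gave 1.83 ± 0.33 (SE, limma adjusted p = 0.013). Copz1 was not called without array 2 (1.38) or without array 3 (1.40).

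Ndufa13, a subunit of respiratory complex I (chromosome 8), was measured on 3 arrays, at 0.82, 2.95 and 3.89 on arrays 1, 3 and 4. The fit gave 2.51 ± 0.45 (SE, limma adjusted p = 0.013), and the gene was not called without array 3 (2.36) or array 4 (1.89). It was the only call among 64 tested genes of the respiratory chain and ATP synthase, against 0.124% of all features called. Of the 64 genes, 39 had positive values. Cox5b, a subunit of cytochrome c oxidase, stood at 1.04 ± 0.28 (SE) in that list and missed the threshold (limma adjusted p = 0.15).

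Psmb6, a catalytic subunit of the proteasome (chromosome 11), had values of 3.03, 1.37, 1.65 and 0.04 on arrays 1 to 4. The values spread widely, and the fit gave 1.52 ± 0.32 (SE, limma adjusted p = 0.034). Its 2 probes disagreed, at 0.50 and 2.55, and neither passed when tested singly. Psmb6 was not called without array 1 (1.14) or without array 3 (1.34). It was the only call among 32 tested proteasome genes, against 0.124% of all features called. Of the 32 genes, 20 had positive and 12 negative values.

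Rad17, which loads the checkpoint clamp onto damaged DNA (chromosome 13), had values of 0.56, 1.39, 3.54 and 1.51 on arrays 1 to 4. The value on array 3 was the highest, and the fit of 1.75 ± 0.35 (SE, limma adjusted p = 0.021) was not called without array 3 (1.02) or array 4 (1.72). Map3k14, a kinase of the noncanonical NF-kappaB pathway (chromosome 11), had values of 0.17, 2.88, 1.44 and 4.04. The fit gave 2.13 ± 0.45 (SE, limma adjusted p = 0.041), and only without array 1 did the call hold. The values were 1.98 without array 2, 2.27 without array 3 and 1.37 without array 4. With the replicate number as a block the adjusted p of Map3k14 was 0.059.

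A pair of called genes did not keep a single sign on the 4 arrays. Adprm, a metal-dependent phosphodiesterase that splits ADP-ribose (chromosome 11), had values of 1.05, -0.34, 4.44 and 3.72 on arrays 1 to 4, with a fit of 2.22 ± 0.47 (SE, limma adjusted p = 0.041). Vasp, which promotes the elongation of actin filaments (chromosome 7), had values of 0.36, -0.46, -2.89 and -4.41, with a fit of -1.85 ± 0.37 (SE, limma adjusted p = 0.02). In both, arrays 3 and 4 held nearly all of the difference. Without array 3 Adprm was at 1.52 and Vasp at -1.64, and without array 4 they were at 1.77 and -1.11, in no case past the threshold.

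The genes that missed the threshold in the negative direction with the smallest p were Klf4, Ncln, Ints5 and Artn. Klf4, a transcription factor of the pluripotency network (chromosome 4), had values of -0.43, -0.64, -0.98 and -0.95 on arrays 1 to 4. All 4 were negative, and the fit gave -0.75 ± 0.18 (SE, limma adjusted p = 0.097). Through linking lines Klf4 stood at -0.47 ± 0.15 (SE, limma adjusted p = 0.37). Ncln, a protein of the endoplasmic reticulum membrane, stood at -1.71 ± 0.41, Ints5, a subunit of the Integrator complex, at -1.43 ± 0.36, and Artn, a neurotrophic ligand, at -1.22 ± 0.32 (SE). Each of these 3 had a value at or above 0 on array 1, though below the median ratio of that array, 0.469.

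The unnamed probes included 3 with a single sign on the 4 arrays that passed the test on other arrays too. Probe 1964 had values of 2.35, 2.48, 2.43 and 2.32 on arrays 1 to 4, and a fit of 2.40 ± 0.48 (SE, limma adjusted p = 0.02). Probe 1746 stood at 2.46 ± 0.49 and probe 2273 at -1.51 ± 0.23 (SE, limma adjusted p = 4e-04). The values of probe 1964 differed little between arrays. Through linking lines they stood at 2.24 ± 0.39, 2.07 ± 0.40 and -1.38 ± 0.19, each past the threshold there as well.

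Few of the called genes were called on arrays that do not hold both lines. Through linking lines 9 of 12703 tested features were called, or 0.0708%, 4 of them positive (0.0315%) and 5 negative (0.0394%). Lefty2, Rbm3 and Rab9 were the called genes with a symbol there, all negative. Of the 20 directly called features 14 could be tested through linking lines. Lefty2 and probes 1964, 1746 and 2273 passed there with the same sign, and 4 features had the opposite sign. Igfbp4 stood at 0.58 ± 0.26, Copz1 at 0.82 ± 0.29 and Fbln2 at 0.27 ± 0.15 (SE). Their signs were those of the direct comparison, but none was called through linking lines (limma adjusted p = 0.61, 0.46 and 0.73). The unadjusted limma p through linking lines was 0.029 for Igfbp4, 0.007 for Copz1 and 0.069 for Fbln2. Psmb6 stood at 0.10 ± 0.26, Krt16 at -0.10 ± 0.19 and Vasp at 0.36 ± 0.30 (SE).

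The difference between the direct value and the value through linking lines was tested as well, a test chosen after the data were seen. Limma called 0 of 12558 features (0%), and 567, or 4.52%, passed at an unadjusted p of 0.05. Among the 14 called features 10 passed at an unadjusted p of 0.05, with Vasp at -2.21 ± 0.48, Psmb6 at 1.42 ± 0.42 and Krt16 at 1.16 ± 0.30 (SE). These features were chosen for their direct values, so this count is a description. Ndufa13, Map3k14, Rad17 and Adprm were measured on too few of the 24 arrays to be tested there. The labels do not say whether the 24 arrays used the same RNA extracts.

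**Figure D2:**
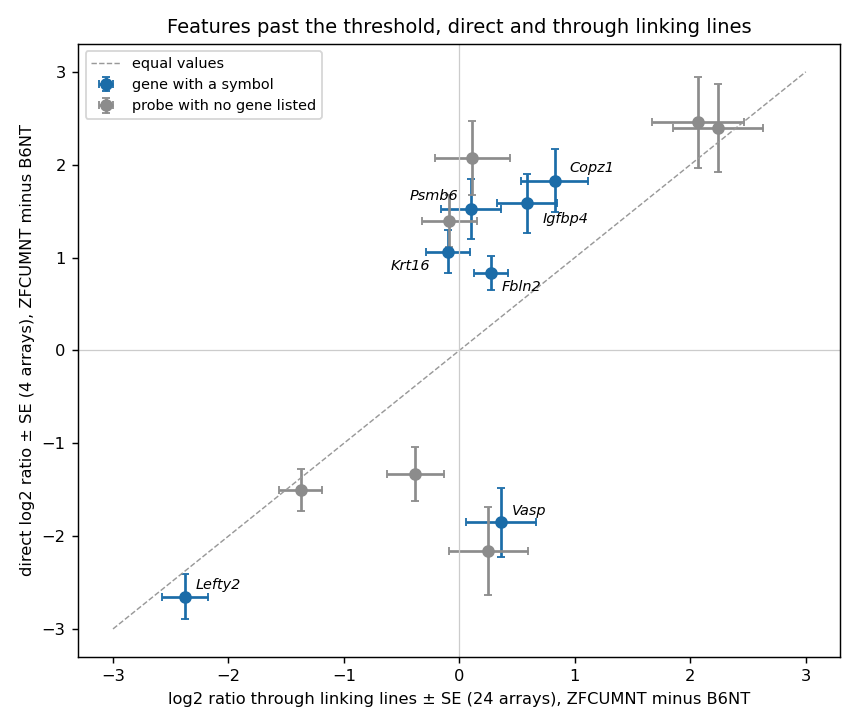
Each point is 1 of the 14 called features that could also be tested through linking lines. The y axis gives the log2 ratio on the 4 direct arrays and the x axis that on the 24 arrays through linking lines, with standard errors. Lefty2 and 3 unnamed probes lie near the line of equal values, while Krt16, Psmb6 and Vasp lie near 0 on the x axis.

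X-linked genes had a lower median ratio than the genes of any autosome. The median of 223 tested X-linked genes lay at -0.147 relative to the median of all features, while the 19 autosomes lay between -0.037 and 0.068. On arrays 1 to 4 the X-linked median was -0.278, -0.141, -0.195 and -0.219. All 4 values were below every autosome on every array, which ran from -0.084 to 0.114. In the deposited orientation the X-linked median was -0.278 and -0.141 on the arrays with ZFCUMNT in Cy5, and 0.195 and 0.219 on those with ZFCUMNT in Cy3, so its sign followed the dye labels. Of the 223 genes 66.4% lay below the median of all features, against 42.8% to 54.6% for the autosomes. With 4 arrays the smallest p of a two-sided exact sign-flip test is 0.125, so that test could not reach 0.05, and the median is given as a description. Without array 2 the median was -0.236.

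On the 24 arrays through linking lines the X-linked median was -0.193 over 167 genes, and the autosomes lay between -0.055 and 0.079. B6NT was also set against HM-1, HM-1 NT and #4 (B6) on 12 other arrays. B6NT minus the other line had a positive X-linked median on 11 of these 12 arrays, from -0.008 to 0.408 with a median of 0.216. ZFCUMNT minus the other line, on 16 arrays against HM-1, HM-1 NT, #4 (B6) and PDCUMNT, had X-linked medians from -0.12 to 0.126 with a median of 0.03. The X-linked median thus lay farther from 0 in most arrays that hold B6NT than in those that hold ZFCUMNT without B6NT. Measured against #4 (B6) the ranges overlapped, from -0.008 to 0.143 for B6NT and from 0.02 to 0.126 for ZFCUMNT. Against HM-1, B6NT ran from 0.195 to 0.408, and B6PGA, another line of the study, from 0.15 to 0.254. HM-1 NT ran from 0.09 to 0.135 against HM-1, #4 (B6) from 0.058 to 0.134, PDCUMNT from 0.042 to 0.113 and ZFCUMNT from 0.049 to 0.092. A positive X-linked median against HM-1 was therefore shared by every other line and not particular to B6NT. The sex and karyotype of the lines are not given in the labels, and Xist was not analysed here.

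**Figure D3:**
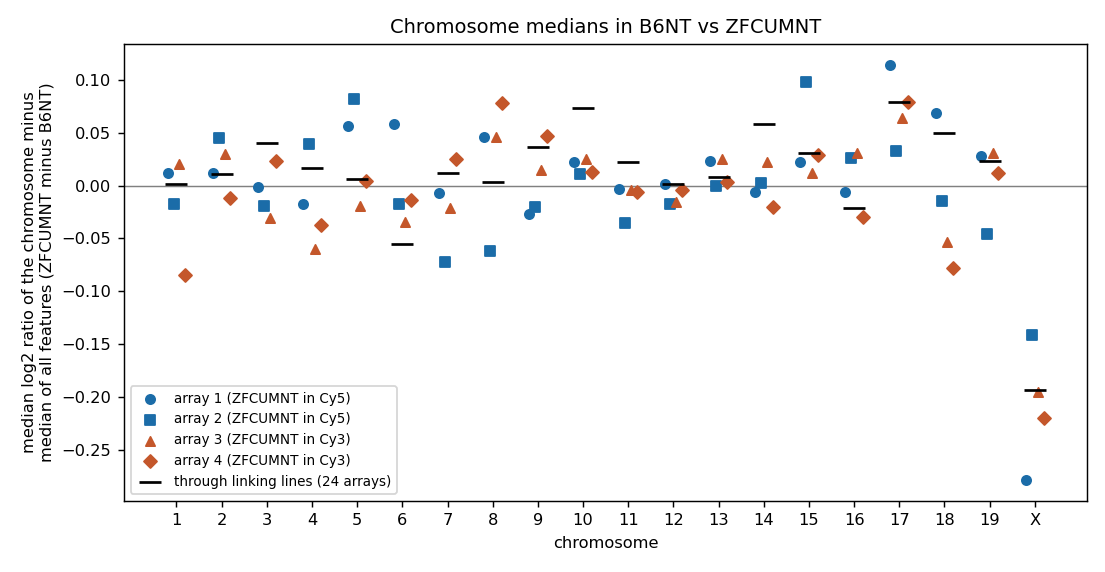
Median log2 ratio of the genes on each chromosome minus the median of all features, for the 4 arrays and for the 24 arrays through linking lines. The X chromosome lies between -0.278 and -0.141 on the arrays, below the 19 autosomes.

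The lower X-linked median was spread over many genes. Of the 223 tested genes 136 had negative and 87 positive values. Limma called 0 of them in the direct comparison, and 18 negative and 1 positive passed at an unadjusted p of 0.05, against 5.21% of all features in either direction. Rbm3, a cold-induced RNA-binding protein (Entrez gene 19652), had values of -0.29, -0.86, -0.91 and -0.93 on arrays 1 to 4. All 4 were negative, and the fit gave -0.75 ± 0.20 (SE, limma adjusted p = 0.15). Array 1 was nearest 0, without centring for the array's median of 0.469. Through linking lines Rbm3 passed the threshold, at -0.87 ± 0.16 (SE, limma adjusted p = 0.0062).

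Tsr2, which acts in ribosome biogenesis, had values of -0.81, -0.83, -0.85 and -1.06 on arrays 1 to 4. The values were close to each other, and the fit of -0.89 ± 0.24 (SE) missed the threshold (limma adjusted p = 0.15), as did the value of -0.79 ± 0.19 through linking lines. Rab9, a small GTPase of transport from endosomes to the Golgi (Entrez gene 56382), had values of -0.14, -0.18, -0.58 and -0.95. All 4 were negative, and the fit of -0.46 ± 0.19 was not called, while the value through linking lines of -0.87 ± 0.16 was (SE, limma adjusted p = 0.0055).

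Other X-linked genes with an unadjusted p below 0.05 in the direct comparison did not pass the test, and their values through linking lines varied. Prps1, which makes phosphoribosyl pyrophosphate, stood at -0.80 ± 0.26 directly and -0.81 ± 0.21 through linking lines. Mpp1, a membrane scaffold protein, stood at -0.86 ± 0.30 and -0.75 ± 0.24. The ribosomal protein gene Rpl39 stood at -0.57 ± 0.16 and -0.51 ± 0.13, and the proteasome assembly chaperone Psmd10 at -0.71 ± 0.30 and -0.92 ± 0.24. Ebp, a sterol isomerase of cholesterol synthesis, stood at -0.87 ± 0.36 and -0.54 ± 0.30 (SE). Each of these 5 genes had at least 3 negative values on the 4 arrays. For others the values differed more: Ocrl, a phosphoinositide phosphatase, stood at -1.13 ± 0.46 directly and 0.24 ± 0.39 through linking lines. Atp7a, a copper transporter, stood at -0.79 ± 0.32 and -0.29 ± 0.26, and Cetn2, a centrin of the centriole, at -0.58 ± 0.27 and -0.21 ± 0.22 (SE).

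None of the tested genes of the X inactivation and Y-linked list was called by limma (0 of 7). Ddx3x alone passed at an unadjusted p of 0.05. Over all features the shares were 0.124% and 5.21%. Ddx3x, an RNA helicase, had values of -0.83, -0.39, -0.64 and -1.41 on arrays 1 to 4 and a fit of -0.82 ± 0.31 (SE, limma adjusted p = 0.62). Eif2s3x, a subunit of translation initiation factor eIF2, stood at -0.32 ± 0.40 directly and -0.92 ± 0.34 through linking lines (SE). Usp9x, a deubiquitinating enzyme, stood at -0.17 ± 0.26 and -0.83 ± 0.21, with a positive value of 0.20 on array 3. Kdm5c, a histone demethylase, stood at -0.07 ± 1.15 and Rlim, a ubiquitin ligase, at 0.18 ± 0.46 (SE). Outside that list Slc25a5, an ADP/ATP carrier of mitochondria, was the 1 X-linked gene with a positive value at an unadjusted p of 0.05, at 0.80 ± 0.36 (SE). The Y-linked gene Kdm5d had values of -0.71, 1.33 and -2.73 on arrays 1, 3 and 4, and Zfy1 stood at 0.25 ± 0.46 (SE), so neither gave a clear sign.

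**Figure D4:**
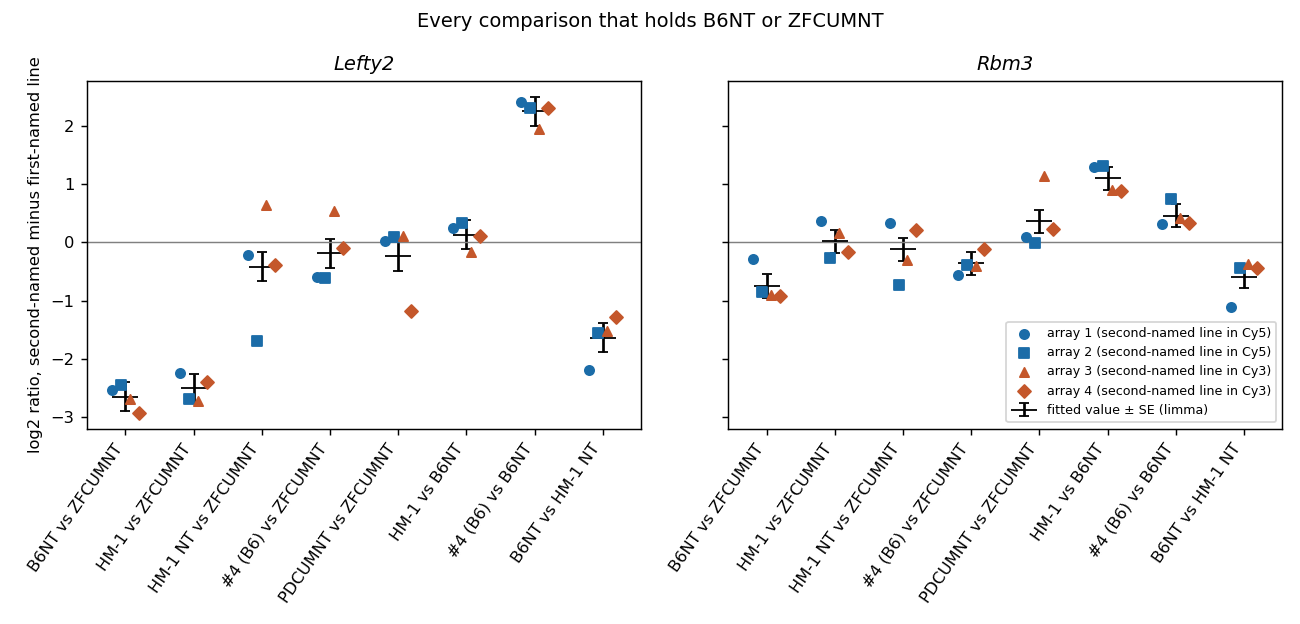
Log2 ratios of Lefty2 and Rbm3 on each array of the 8 comparisons that hold ZFCUMNT or B6NT. Lefty2 lies between -2.93 and -2.45 for ZFCUMNT minus B6NT and between 1.95 and 2.41 for B6NT minus #4 (B6), and Rbm3 lies between -0.93 and -0.29 for ZFCUMNT minus B6NT.

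Fibroblast and feeder genes were mostly positive. Of 36 on the array 33 were tested, with 27 positive and 6 negative values and a median of 0.34, against 0.06 for all features. Limma called Igfbp4 and Fbln2, both positive, and 7 genes passed at an unadjusted p of 0.05, all positive. Over all features 0.124% were called and 5.21% passed at an unadjusted p of 0.05. On arrays 1 to 4 the list median lay 0.309, 0.138, 0.236 and 0.188 above that of all features, and through linking lines 0.263 above it. In the fit the list median lay 0.273 above that of all features, and without array 1 it lay 0.177 above it. Fibroblasts are used as feeder layers for ES cells. In such bulk RNA more cells of a type and more RNA per cell cannot be told apart, and the part of fibroblast RNA in any other result was not tested.

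Mmp3, a matrix metalloproteinase, had values of 2.62, 2.50, 1.72 and 1.67 on arrays 1 to 4. All 4 were well above 0, but the fit of 2.13 ± 0.61 (SE) missed the threshold (limma adjusted p = 0.22). The collagen genes Col5a1, Col6a1 and Col1a1 stood at 0.95 ± 0.25, 1.04 ± 0.33 and 0.59 ± 0.24, and Mmp2, another metalloproteinase, at 0.80 ± 0.36 (SE). Of the other abundant fibroblast products, Col3a1 stood at 0.35 ± 0.25, Col1a2 at 0.17 ± 0.27, Vim at 0.04 ± 0.21 and Fn1 at -0.01 ± 0.25. The list was thus uneven, with some matrix genes well above 0 and others near it.

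Pluripotency factors showed no common direction. Of 27 tested, 13 had positive and 14 negative values, with a median of -0.12. Limma called 0, against 0.124% of all features. At an unadjusted p of 0.05, 1 positive and 2 negative passed, against 5.21% of all features. The list median relative to all features was -0.126, 0.174, -0.295 and -0.204 on arrays 1 to 4, and -0.031 through linking lines. Utf1, a chromatin-bound factor of undifferentiated cells, had values of 1.34, 1.63, 1.55 and 1.03. Its 4 values were all positive, with a fit of 1.39 ± 0.42 (SE, limma adjusted p = 0.3), but through linking lines it stood at 0.11 ± 0.34.

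The core factor genes stood near 0 with errors that leave room for moderate differences. Pou5f1 stood at 0.40 ± 0.22, Sox2 at 0.13 ± 0.45, Esrrb at 0.23 ± 0.47 and Zfp42 at 0.58 ± 0.41. Dppa4, a chromatin-associated factor of undifferentiated cells, stood at -0.57 ± 0.24, Dppa3 at -0.54 ± 0.35 and Dppa5a at -0.12 ± 0.20 (SE). Pou5f1 had values of 0.63, 0.32, 1.20 and -0.54 on arrays 1 to 4, so that array 4 went the other way. Of 9 tested genes of the primed epiblast and germ layers, Lefty2 was the only call, against 0.124% of all features called. Crabp1, a retinoic acid binding protein in that list, stood at 0.62 ± 0.28 directly and 0.67 ± 0.23 through linking lines (SE).

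Markers of other cell types gave no call. Of all features 0.124% were called and 5.21% passed at an unadjusted p of 0.05. Of 12 tested cumulus and granulosa genes 8 were positive, and Kitl, the ligand of the Kit receptor, had values of 4.48, 0.22, 1.14 and 0.34 on arrays 1 to 4. Array 1 stood far above the others, and the fit was 1.54 ± 0.58 (SE, limma adjusted p = 0.6), the only member with an unadjusted p below 0.05. Has2, Inha, Amhr2 and Star stood at 0.67 ± 1.18, 0.43 ± 0.69, -0.19 ± 0.37 and -0.08 ± 0.50 (SE). Limma called 0 of 14 endoderm and 0 of 12 trophectoderm genes, and 0 of either list passed at an unadjusted p of 0.05. The endoderm factor Gata6 had values of 1.10, 0.43, 0.90 and 0.98, all positive, with a fit of 0.85 ± 0.55, and the trophectoderm factor Cdx2 stood at 0.06 ± 0.28 (SE).

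Imprinted genes, expressed from 1 parental allele and often disturbed after nuclear transfer, gave no call either. Of 31 tested, 22 had positive values, and the median was 0.17, against 0.06 for all features. At an unadjusted p of 0.05, 2 passed, both positive, against 5.21% of all features. Phlda2, a maternally expressed gene that restrains placental growth (chromosome 7), had values of 1.26, 0.70, 0.22 and 0.34 on arrays 1 to 4. All 4 were positive, and the fit was 0.63 ± 0.20 (SE, limma adjusted p = 0.37), with 0.60 ± 0.16 through linking lines. Inpp5f, an inositol phosphatase gene with an imprinted transcript, stood at 1.82 ± 0.86 on 3 arrays. The paternally expressed growth factor gene Igf2 stood at 0.45 ± 0.33, with 0.63 ± 0.27 through linking lines. Peg3, also paternally expressed, stood at 0.32 ± 0.34 directly but at -0.99 ± 0.28 through linking lines, and the maternally expressed Cdkn1c at 0.33 ± 0.35 and -0.25 ± 0.29 (SE).

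Of 24 interferon and antigen presentation genes limma called 0, against 0.124% of all features. At an unadjusted p of 0.05, 2 passed, both positive, against 5.21% of all features. H2-K1, a classical MHC class I heavy chain, had values of 1.75, 2.39, 0.97 and 0.25 on arrays 1 to 4. All 4 were positive and largest on arrays 1 and 2, with a fit of 1.34 ± 0.36 (SE, limma adjusted p = 0.15) and 1.05 ± 0.29 through linking lines. MHC genes are polymorphic between mouse strains and similar to each other, and which of them this probe detects is not known. Bst2, an interferon-induced membrane protein, stood at 0.60 ± 0.18, and B2m, the light chain of class I molecules, at 0.51 ± 0.32 (SE).

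The lists of general cell functions lay close to all features, of which 0.124% were called and 5.21% passed at an unadjusted p of 0.05. The 63 cytosolic and 59 mitochondrial ribosomal protein genes had medians of 0.10 and 0.06, with 0 called by limma, and 1 positive and 2 negative against 2 positive and 0 negative at an unadjusted p of 0.05. Of 56 cell cycle genes 28 were positive and 28 negative, with 0 called and 4 positive and 1 negative at an unadjusted p of 0.05. Cdc20, an activator of the anaphase-promoting complex, had values of 0.90, 2.76, 0.99 and 0.02 on arrays 1 to 4 and a fit of 1.17 ± 0.27 (SE, limma adjusted p = 0.078). Of 39 heat shock and chaperone genes limma called 0, with 4 positive and 2 negative at an unadjusted p of 0.05. Hsp90b1, the chaperone of the endoplasmic reticulum, stood at 1.41 ± 0.41 and the cytosolic Hsp90aa1 at -0.86 ± 0.30 (SE).

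The lists that follow stand beside 0.124% of all features called and 5.21% at an unadjusted p of 0.05. Of 12 cholesterol synthesis genes limma called 0, and Ebp alone, negative, passed at an unadjusted p of 0.05. The list median lay 0.157, 0.254, 0.134 and 0.162 above that of all features on arrays 1 to 4. Of 47 DNA methylation and chromatin genes limma called 0, with 2 positive and 2 negative at an unadjusted p of 0.05, and the histone chaperone gene Asf1a stood at -0.44 ± 0.17 (SE). The 30 glycolysis and hypoxia genes and the 38 genes of actin, adhesion and junctions likewise gave 0 calls, with 2 positive and 2 negative each at an unadjusted p of 0.05. Vegfa, the vascular growth factor, stood at -0.77 ± 0.34 directly and -0.14 ± 0.28 through linking lines (SE). Itga6, an integrin chain, stood at 1.87 ± 0.60 (SE), with mixed values of 1.92, 0.98, -0.47 and 5.07 on arrays 1 to 4. Histones (16 tested), apoptosis and p53 genes (32) and germ cell and testis genes (23) gave 0 calls by limma. At an unadjusted p of 0.05 they held 1 positive and 1 negative, 1 positive and 0 negative, and 2 positive and 0 negative genes.

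**Figure D5:**
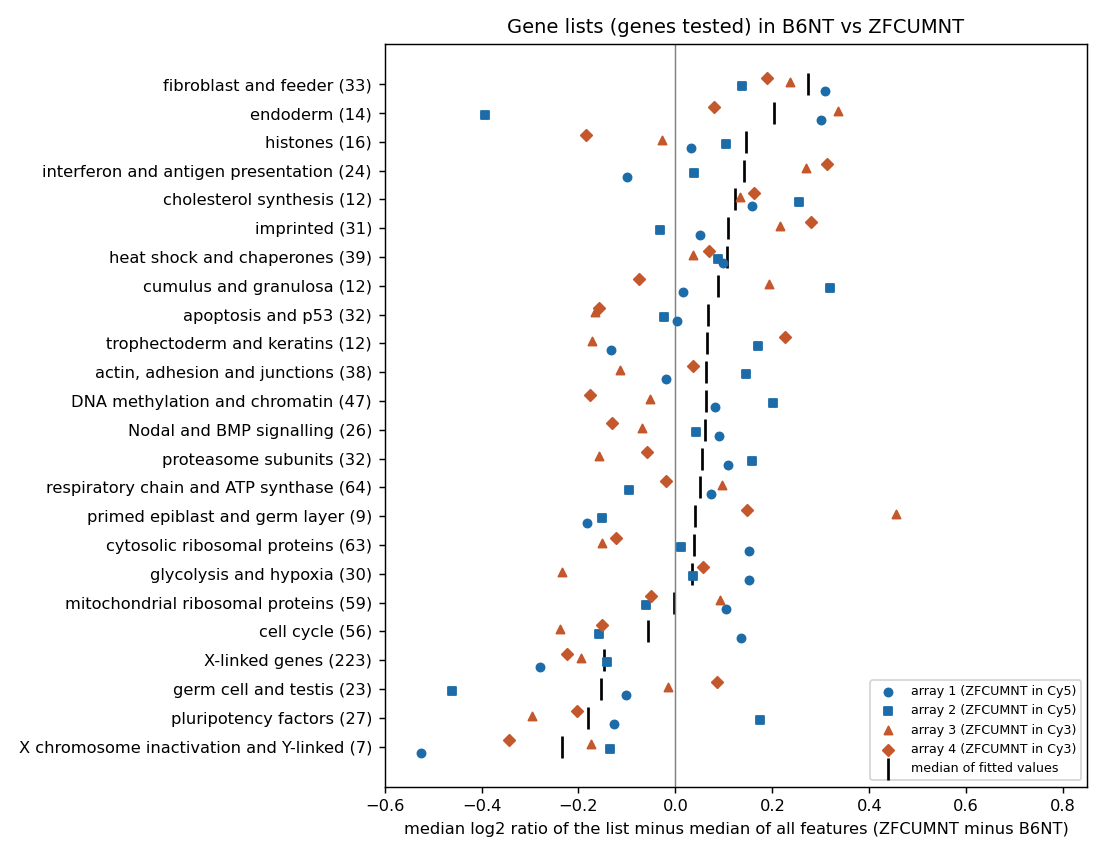
Median log2 ratio of each gene list minus the median of all features, for each of the 4 arrays and for the fitted values. The fibroblast and feeder list lies between 0.138 and 0.309 on the 4 arrays, and the X-linked genes lie below 0 on all 4.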

How the data were processed

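The authors deposited 1 table of dye ratios for 52 arrays, read here as log2 from the range of its values. Per the labels, each array held an ES line in both channels, although the protocol text speaks of organs and a pool from control animals. The scanner, background correction and normalization are not given in the sources used here. Ratios were turned by the dye labels to ZFCUMNT minus B6NT. Constant top values above 12 (74 to 95 probes on the 4 arrays) were treated as not measured. A gene symbol was listed for 12771 of 20794 probes, several for 0 and none for 8023. Probes of a gene were averaged.

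One joint model covered the 52 arrays (limma 3.58.1, R 4.3.3). It held a coefficient for each comparison and, per feature, a dye effect. A feature was tested if 3 of 4 arrays measured it in both dye orientations, and p-values were adjusted by Benjamini-Hochberg within the comparison. The script was tested on simulated data. No 2 arrays were duplicates (highest rank correlation 0.594). The number of arrays limits the precision, with a median SE of 0.439.

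Genes were named by a rule: up to 12 called genes of a single sign in each direction, called list members, the 2 list members with the smallest p, the genes with the smallest p where a direction had few calls, and genes called both directly and through linking lines. Adprm, Rab9, Lefty1 and other list members given as values were added after their values were seen. The comparison, the gene lists and this rule were chosen with earlier results of these data known. Probes carry no genome build, so chromosomes come from RefSeq by gene and no coordinates or sequences are given. Alternatives covered orientation, dye term, arrays in the fit, centring, scaling, array weights, top values, probe averaging, the variance prior, the replicate block and each array left out.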

Additional observations from a re-analysis of the deposited data

Results flagged for a closer look

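Of 51 genes with 4 measured arrays that were examined, 3 had 1 array far from the other 3, and chance flags about 1 in 20 such groups. Nr5a2, a nuclear receptor of pluripotent and granulosa cells, was at -0.744 on array 3, against 0.872 to 0.992 on the other arrays. Psmd10, X-linked, was at -0.324 on array 1, against -0.872 to -0.81 on the others. Rbm3, X-linked, was at -0.287 on array 1, against -0.929 to -0.858 on the others. These values are not centred, and array 1 lay higher as a whole. Its median deposited ratio was 0.469, against -0.028, 0.085 and 0.089 on arrays 2 to 4. Whether the flags remain after centring was not tested. None of the 3 genes was called in the direct comparison.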

How the results depend on the processing

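The number of features called by limma depended on the processing. Against 20 calls, 6 were made with no dye term, 86 with arrays scaled to equal spread, 60 with array weights and 9 through linking lines. The comparison fitted alone on its 4 arrays gave 0 calls with or without a dye term, with 836 and 638 features at an unadjusted p of 0.05. Leaving out 1 array gave 10 to 34 calls. With ratios as they stand 15 were called, 1 of them shared with the 20, and with 1 coefficient per line 23, with 6 shared. Each comparison holds 2 arrays of each dye orientation, so a difference between lines largely cancels when ratios are left as they stand. That setting does not estimate ZFCUMNT minus B6NT. Through linking lines 9 calls became 471 with ratios as they stand, 28 with equal spread and 18 with array weights. The paths alone gave 2 (HM-1), 17 (#4 (B6)) and 28 (HM-1 NT). Apart from the ratios as they stand, the cause of these changes was not tested.

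The X-linked median of -0.147 was 0.012 with ratios as they stand, and -0.236 to -0.15 with 1 array left out. With ratios as they stand these genes had a fitted value of the other sign: Lefty2 0.16, Ndufa13 -1.91, Map3k14 -0.61, Rad17 -0.77, Krt16 -0.39, Adprm -1.86, Vasp 1.80, Klf4 0.22, Ncln 0.03, Ints5 0.42 and Artn 1.09. In that setting line differences cancel over the dye swap, so these values and the X-linked median of 0.012 do not bear on the direction. Through linking lines Krt16 was at -0.10 and Vasp at 0.36. Lefty2 kept its sign and call under 16 of 19 alternatives, and missed the threshold in both fits on 4 arrays alone (-2.65, limma adjusted p of 0.88 and 0.35). The remaining alternative was the ratios as they stand. Of 437 list medians 31 moved by more than the spread between arrays. With subtracted medians Adprm, Fbln2, Krt16 and Map3k14 were no longer called, at adjusted p-values of 0.065 to 0.069. Klf4 passed under 5 of 19 alternatives.

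The replicate numbers share no stated batch, and arrays of the same number did not deviate together (median correlation -0.031 over 48 pairs, 3 over 0.1, against -0.039 for other numbers). With the replicate block 19 features were called, 18 of them shared.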
